A study of Mus musculus with 6 samples.

Results

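Secretory and membrane proteins enter the endoplasmic reticulum through a shared series of complexes, and 35 genes of that series are described here in mouse liver. They encode proteins of the signal recognition particle and its receptor, the Sec61 translocon with Sec62 and Sec63, the translocon-associated protein complex (TRAP), signal peptidase, oligosaccharyltransferase, the assembly of the lipid-linked sugar, and the glucosidases and lectin chaperones. Every probe set of the array annotated to exactly 1 symbol among these 35 genes was taken. That gave 85 of the 45037 probe sets tested, for 34 of the 35 genes and of 18193 genes in all. Sec61g had no probe set annotated to it alone.

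The livers came from male BALB/cCrSlc mice, an inbred albino strain, aged 17 weeks, with 1 array per mouse. In 3 mice the protein of the diet was 6% casein plus 4% fish collagen peptide (6C+4CP), and in the 3 control mice it was 10% casein (10C). Both were AIN-93M-based low-protein diets fed for 10 weeks and followed by 3 h without food, so the effect of removing casein and that of giving collagen peptide cannot be told apart. The 3 mice were chosen from 12 on each diet for a medium food efficiency.

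Hepatocytes secrete most proteins of blood plasma, so this entry route carries a large flow in liver. The signal recognition particle binds the signal sequence of a nascent chain and brings the ribosome to its receptor on the membrane, and the chain passes through the Sec61 channel while signal peptidase cuts off the signal. Oligosaccharyltransferase moves a preformed sugar chain from a lipid carrier onto asparagine, glucosidases trim it, and calnexin and calreticulin hold the trimmed glycoprotein until it is folded.

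The deposited values are logarithms of unstated base, read here as log2, and each fold rests on that reading. The 6 array medians ran from 6.306 to 6.308, and precision is limited by how few arrays there are. Most probe sets hold practically 1 value on all arrays: 7791 of 45037 (17.3%) ranged over more than 0.01 and are called varying, and the others say nothing about the diets. Among the member probe sets the threshold fell in a wide gap, since the narrowest varying one, a probe set of Ganab, ranged over 0.0222 and the widest of the others, of Sec63, over 8.45e-07. The brightest probe set of a gene stands for the gene. Hepatocyte transcripts were among the brightest, with Alb at 14.23 on every array and Ttr at 13.87 to 13.93.

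Genes of protein entry and glycosylation had mostly lower values in livers of mice fed 6C+4CP than in livers of mice fed 10C, by small amounts. Of the 34 genes measured 25 varied, and 22 of the 25 were lower in 6C+4CP while 3 were higher by at most 0.01. The median difference of the 25, 6C+4CP minus 10C on the log2 scale, was -0.16, against -0.01 over all 4074 varying genes, of which 52.0% were lower. The widest differences were those of Calr (-0.88) and Mogs (-0.64), at the sugar-trimming and lectin end of the route. In 9 of the 25 genes, all lower, the 3 mice fed 6C+4CP did not overlap the 3 fed 10C, whereas 9.52% of all varying genes were lower without overlap and 11.8% were higher without overlap. No member passed the test between the diets.

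Limma called 0 of the 85 member probe sets at an adjusted p under 0.05, against 0.242% of all probe sets, and 103 of those 109 calls fell on probe sets that did not vary. Fitted to varying probe sets alone, limma called 0 of 51 member probe sets and 0.0% of the 7791. At an unadjusted p under 0.05, 11 of the 51 varying member probe sets were lower and 0 higher in the fit to the whole table, against 5.74% of all varying probe sets lower at that level. The fit to varying probe sets alone put 17 of the 51 there, against 6.35%. With 3 mice against 3, an exact two-sided permutation test cannot go below 0.1. In whole liver, fewer cells of a type and less RNA per cell cannot be told apart.

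Members were bright, and many of them varied. Of all genes 22.4% varied, and of the members 73.5%. Of the 34 members 32 lay among the brightest 4548 genes by mean value, where 55.8% of all genes and 24 of the 32 members varied, and the difference between these shares was not tested.

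**Figure D1:**
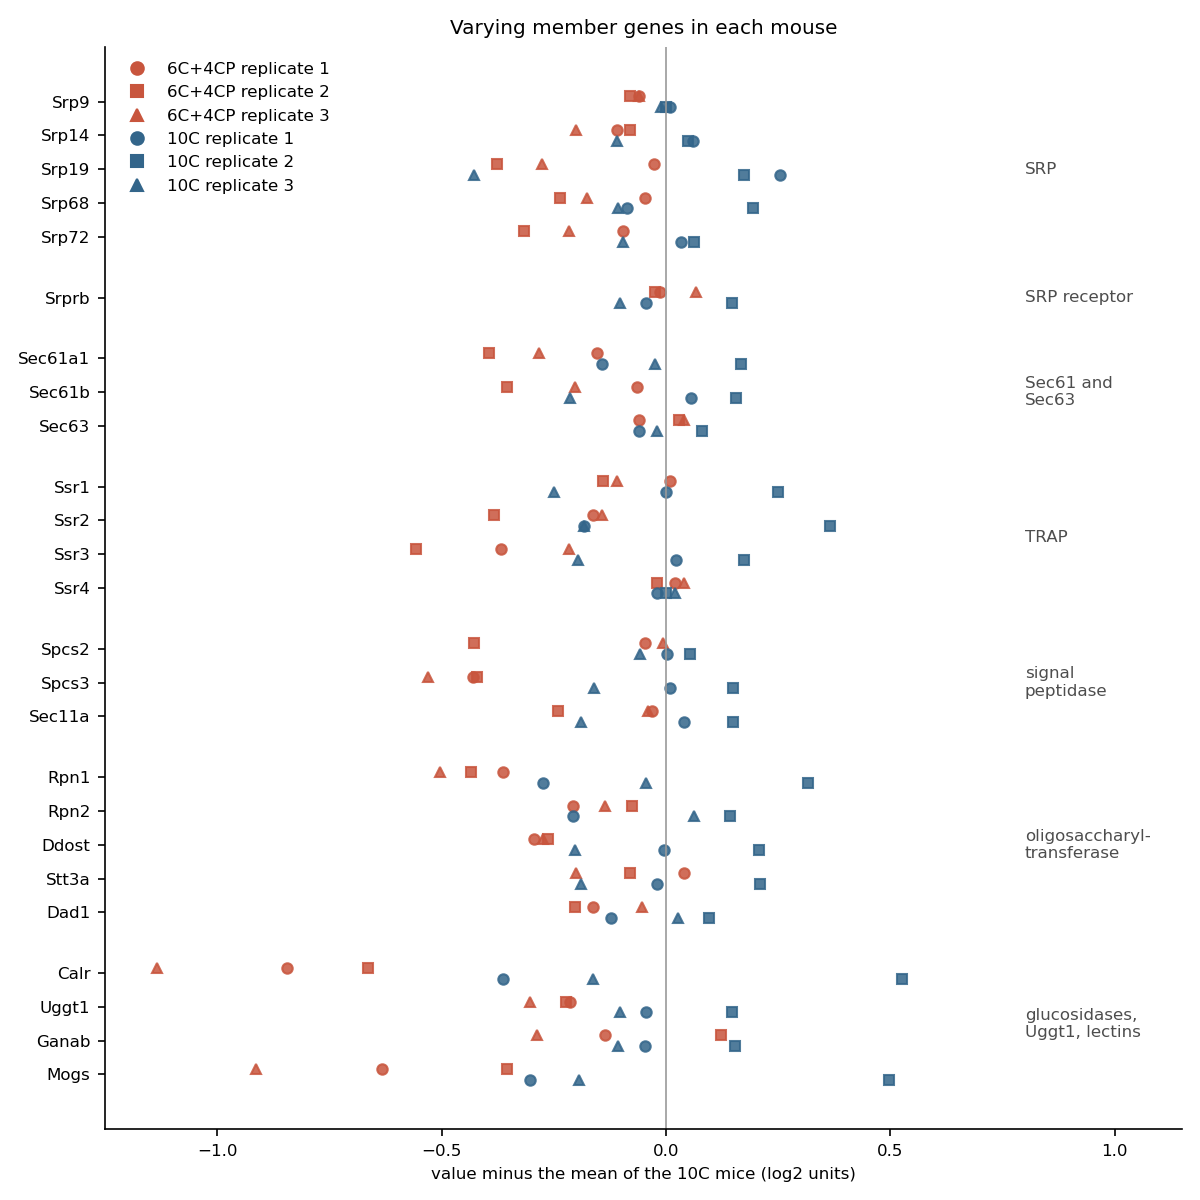
Value of each of the 25 varying member genes in each mouse minus the mean of the 3 10C mice (log2 units), with genes grouped by complex. Points are single mice, red for 6C+4CP and blue for 10C, and the square of 10C replicate 2 is the rightmost point in 21 of the 25 genes.

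A single control mouse stood at the upper end. 10C replicate 2 had the highest value of the 6 mice in 21 of the 25 varying members (84.0%), while it was highest in 27.1% of all varying genes. The mean over the 25 genes was 9.46, 9.39 and 9.39 in the 6C+4CP mice, against 9.58, 9.82 and 9.52 in the 10C mice. Saa1, which encodes the acute phase protein serum amyloid A, read 14.03 in 10C replicate 2, against 7.87, 7.54 and 9.13 in the 6C+4CP mice and 7.68 and 8.84 in the other 10C mice, and the part of this in the members' differences was not tested. Without that mouse 20 of the 25 members were still lower in 6C+4CP, with a median difference of -0.11. In that comparison 9 genes were lower without overlap and 1, Srprb, was higher without overlap. Leaving out a mouse can only keep or raise such counts, so they do not show that the separation holds. The shares among all varying genes were not computed for that comparison.

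The signal recognition particle was represented by 5 protein genes, and all 5 varied and were lower in 6C+4CP, with a median difference of -0.15. Srp9, which with Srp14 forms the part of the particle that slows translation, read 10.04, 10.02 and 10.04 in the 6C+4CP mice, against 10.11, 10.10 and 10.09 in the 10C mice. The groups did not overlap, although the difference was only -0.07 (SE 0.0097, limma adjusted p = 0.357). Its other probe set, at 9.16, 8.99 and 9.08 in 6C+4CP and 9.31, 9.49 and 9.12 in 10C, differed by -0.23 with overlap.

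Srp72, which with Srp68 forms the large protein heterodimer of the particle, read 9.34, 9.12 and 9.22 in the 6C+4CP mice, against 9.47, 9.50 and 9.34 in the 10C mice, a difference of -0.21 (SE 0.079). The lowest 10C mouse met the highest 6C+4CP mouse. Its dimmer probe set separated the diets, with 9.00, 8.99 and 9.04 in 6C+4CP and 9.08, 9.19 and 9.12 in 10C. Srp68 differed by -0.15, Srp14 by -0.13 and Srp19, which helps the particle's RNA to assemble, by -0.23, all with overlap. Without 10C replicate 2 the difference of Srp68 was -0.06. Srp19 read 9.09, 8.74 and 8.84 in 6C+4CP, against 9.37, 9.29 and 8.69 in 10C, and its difference rested on single 10C mice, with -0.10 without replicate 1, -0.14 without replicate 2 and -0.44 without replicate 3.

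The receptor of the particle was hardly measured, since only 1 of its 5 probe sets varied. Srprb, its membrane-anchored subunit, read 7.08, 7.07 and 7.16 in 6C+4CP, against 7.05, 7.24 and 6.99 in 10C, a difference of 0.01 (SE 0.077) whose sign depended on which mouse was left out. Neither of the 2 probe sets of Srpr, the subunit that binds the particle, varied.

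Of the Sec61 channel subunits measured, Sec61a1 separated the diets, by narrow margins, and Sec61b did not. Sec61a1, which forms the pore, read 10.45, 10.21 and 10.32 in the 6C+4CP mice, against 10.46, 10.77 and 10.58 in the 10C mice, a difference of -0.28 (SE 0.11, limma adjusted p = 0.704). The groups lay apart by only 0.02, between 10C replicate 1 and 6C+4CP replicate 1. A second of its 4 varying probe sets, with 9.00, 8.92 and 8.94 in 6C+4CP and 9.09, 9.24 and 9.18 in 10C, separated the diets as well. The other 2 were lower in 6C+4CP with overlap.

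Sec61b, a small tail-anchored subunit of the channel, read 10.80, 10.51 and 10.66 in 6C+4CP, against 10.92, 11.02 and 10.65 in 10C. Its difference of -0.21 (SE 0.14) came with overlap, and moved to -0.14 when 6C+4CP replicate 2 was left out, to -0.13 without 10C replicate 2 and to -0.32 without 10C replicate 3. Sec62 and Sec63 serve chains that enter after translation. The brightest probe set of Sec62 did not vary, and its 1 varying probe set differed by -0.05. For Sec63, a partner of BiP at the channel, the probe sets disagreed: the brightest differed by less than 0.01, whereas another, at 8.25, 8.24 and 8.20 in 6C+4CP and 8.41, 8.52 and 8.36 in 10C, was lower without overlap (difference -0.20, SE 0.048).

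The TRAP complex sits beside the channel and helps certain chains to enter, and Ssr1 to Ssr4 encode its subunits. Ssr3 had the widest difference, with 10.49, 10.30 and 10.64 in the 6C+4CP mice, against 10.88, 11.03 and 10.66 in the 10C mice (-0.38, SE 0.14, limma adjusted p = 0.704). The diets did not overlap for it, by a margin of 0.02. Its other probe set, at 9.13, 9.19 and 9.15 in 6C+4CP and 9.38, 9.35 and 9.23 in 10C, did not overlap either.

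The rest of the complex differed less. Ssr2 read 8.55, 8.33 and 8.57 in 6C+4CP, against 8.53, 9.08 and 8.53 in 10C, where replicate 2 stood apart, and its difference of -0.23 was -0.05 without that mouse. Ssr1 differed by -0.08, or by 0.04 without 10C replicate 2 and -0.20 without 10C replicate 3, and Ssr4 by 0.01. The median of the complex was -0.15, and it was -0.02 without 10C replicate 2 and -0.26 without 10C replicate 3.

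In signal peptidase all 3 varying genes were lower in 6C+4CP, 1 of them, Spcs3, without overlap. Spcs3, an accessory subunit needed for the enzyme's activity, read 9.13, 9.14 and 9.03 in the 6C+4CP mice, against 9.57, 9.71 and 9.40 in the 10C mice. The lowest 10C mouse stood 0.26 above the highest 6C+4CP mouse, and the difference was -0.46 (SE 0.095, or 1.37 times lower, limma adjusted p = 0.545). It stayed between -0.54 and -0.38 when any 1 mouse was left out.

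Spcs2, another accessory subunit, gave different sizes from its 2 probe sets. The brighter one read 9.94, 9.56 and 9.98 in 6C+4CP, against 9.99, 10.04 and 9.93 in 10C, with overlap and a difference of -0.16 that was -0.02 without 6C+4CP replicate 2. The dimmer one read 9.50, 9.06 and 9.55 in 6C+4CP, against 10.10, 10.35 and 10.02 in 10C, without overlap and with a difference of -0.78 (SE 0.18, limma adjusted p = 0.572). The 2 probe sets had the same sign and differed widely in size.

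The catalytic subunits of signal peptidase are paralogues. Sec11a read 10.23, 10.02 and 10.22 in 6C+4CP, against 10.30, 10.41 and 10.07 in 10C, a difference of -0.10 (SE 0.12) inside the spread of the mice, -0.03 without 10C replicate 2 or without 6C+4CP replicate 2, and -0.20 without 10C replicate 3. Sec11c was 9.28 on every array and did not vary, so the pair could not be compared. The brightest probe set of Spcs1 did not vary either, and its varying one differed by -0.16 with overlap.

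In oligosaccharyltransferase all 5 varying genes were lower in 6C+4CP, with a median difference of -0.14 that was -0.25 without 10C replicate 1 and, with 4 of the 5 lower, -0.09 without 10C replicate 2. Rpn1, ribophorin I, a subunit that presents substrates to the catalytic centre, had the widest gap. It read 10.45, 10.38 and 10.31 in the 6C+4CP mice, against 10.54, 11.13 and 10.77 in the 10C mice, without overlap (difference -0.43, SE 0.17, or 1.35 times lower, limma adjusted p = 0.704). Without 10C replicate 2 the difference was -0.28.

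All 6 probe sets of Rpn1 varied and were lower in 6C+4CP, 5 of them without overlap and with differences from -0.53 to -0.35, and the sixth, the dimmest, by -0.04. Ddost, a further subunit of the enzyme's core, read 8.64, 8.67 and 8.66 in 6C+4CP, against 8.93, 9.14 and 8.73 in 10C. The diets did not overlap, and the difference was -0.28 (SE 0.12), or -0.17 without 10C replicate 2.

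Rpn2, ribophorin II, read 8.86, 8.99 and 8.93 in 6C+4CP, against 8.86, 9.21 and 9.13 in 10C. Dad1, a small subunit of the core, read 9.65, 9.61 and 9.76 in 6C+4CP, against 9.69, 9.91 and 9.84 in 10C. Both differed by -0.14, both with overlap and both smaller without 10C replicate 2 (-0.07 for Rpn2 and -0.09 for Dad1), and Rpn2 by -0.25 without 10C replicate 1. Stt3a and Stt3b are the alternative catalytic subunits, the first acting on chains during translocation and the second also after it. Stt3a read 10.44, 10.32 and 10.20 in 6C+4CP, against 10.38, 10.61 and 10.21 in 10C, a difference of -0.08 (SE 0.13) with overlap that ran from -0.18 without 10C replicate 3 to 0.02 without 10C replicate 2. Stt3b was 10.03 on every array and did not vary, so no difference between the paralogues could be read.

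**Figure D2:**
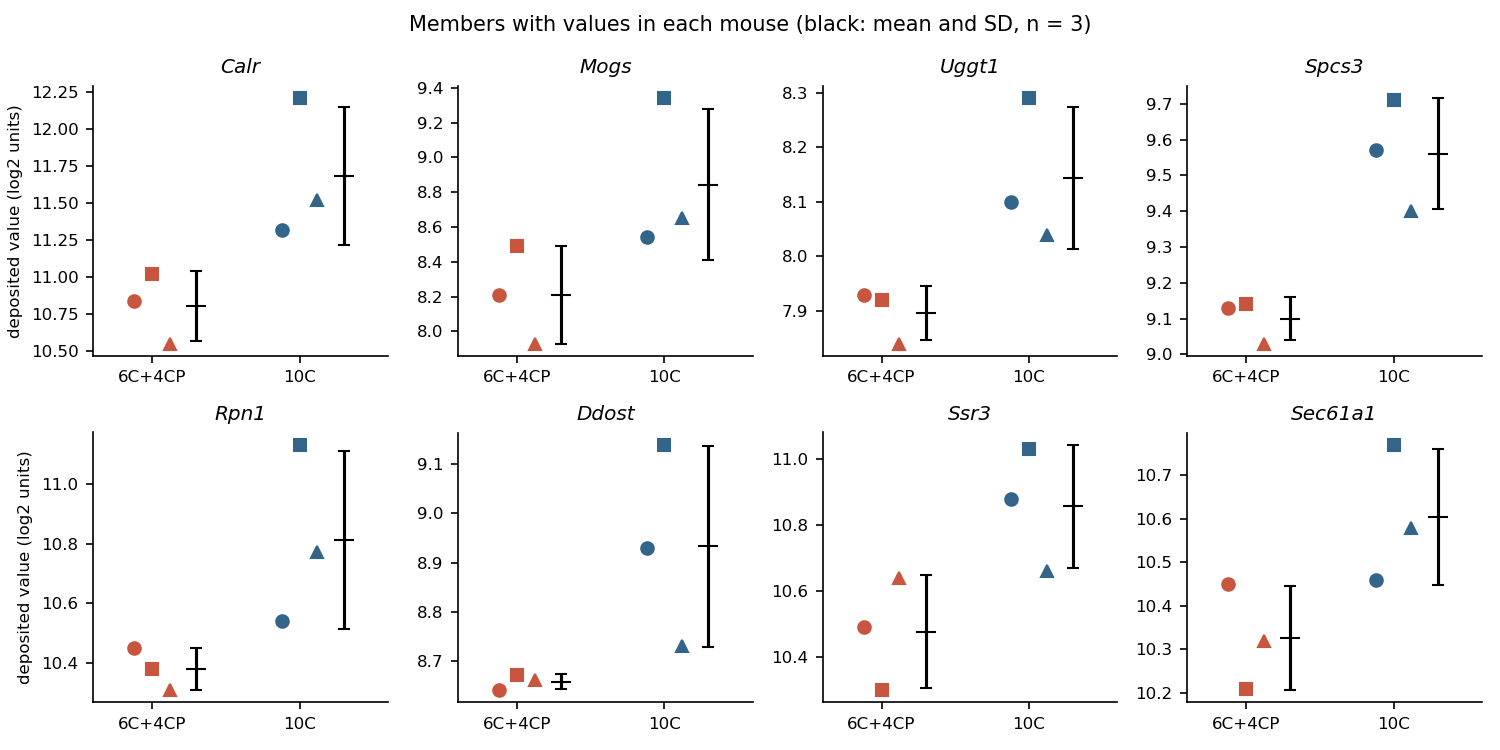
Deposited values (log2 units) of 8 members in each mouse, with 6C+4CP in red on the left and 10C in blue on the right of each panel, and circle, square and triangle for replicates 1, 2 and 3. Black bars give the mean and SD of 3 mice, and each panel has its own vertical range. All 8 were taken from the 9 members without overlap, so the separation in each panel follows from that choice. The margin is as little as 0.02 in Sec61a1 and Ssr3. The 10C square is the highest point in each panel, while Srp9, the member of the 9 not shown, was highest in 10C replicate 1.

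By brightest probe set the widest differences, those of Calr and Mogs, lay at the end of the route. The other varying genes there, Uggt1 and Ganab, differed less than Spcs3, Rpn1 and Ssr3. Once transferred, the sugar loses glucose through glucosidase I (Mogs) and glucosidase II (Ganab with its partner Prkcsh), and Uggt1 puts glucose back on chains that are not folded so that they return to calnexin and calreticulin. Of these 6 genes 4 varied and all 4 were lower in 6C+4CP, 3 of them without overlap, with a median difference of -0.44, or -0.28 without 10C replicate 2.

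Calr, calreticulin, the soluble lectin chaperone, read 10.84, 11.02 and 10.55 in the 6C+4CP mice, against 11.32, 12.21 and 11.52 in the 10C mice. The groups did not overlap, and 10C replicate 2 stood above the rest of its diet. The means were 10.80 ± 0.24 in 6C+4CP and 11.68 ± 0.46 in 10C (SD, n = 3 each), a difference of -0.88 (SE 0.30) or 1.84 times lower, with a limma adjusted p of 0.704. All 3 probe sets of Calr were lower without overlap, by -1.01, -0.88 and -0.86. Without 10C replicate 2 the difference of the brightest was -0.62.

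Canx, calnexin, the membrane-bound lectin chaperone, differed from its soluble counterpart in what could be read. Its brightest probe set was 11.42 on every array. Its 1 varying probe set read 9.77, 9.60 and 9.79 in 6C+4CP, against 9.80, 9.90 and 9.86 in 10C, a difference of -0.13 (SE 0.065) without overlap but with a margin of 0.01. Calr and Canx were not compared in a test.

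Mogs, glucosidase I, which removes the outermost glucose, read 8.21, 8.49 and 7.93 in the 6C+4CP mice, against 8.54, 9.34 and 8.65 in the 10C mice. The diets did not overlap, by a margin of 0.05, and the difference was -0.64 (SE 0.29, or 1.55 times lower, limma adjusted p = 0.704), or -0.39 without 10C replicate 2. Uggt1, the folding sensor, read 7.93, 7.92 and 7.84 in 6C+4CP, against 8.10, 8.29 and 8.04 in 10C, a difference of -0.25 (SE 0.080) without overlap. Ganab, the catalytic subunit of glucosidase II, read 8.34, 8.60 and 8.19 in 6C+4CP, against 8.43, 8.63 and 8.37 in 10C, and overlapped (-0.10, SE 0.14). Its difference was -0.22 without 6C+4CP replicate 2, -0.01 without 6C+4CP replicate 3, -0.03 without 10C replicate 2 and -0.16 without 10C replicate 3. Prkcsh, its regulatory subunit, was 8.84 on every array.

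Alg2 and Alg5 act before the transfer, Alg2 as a mannosyltransferase that builds the lipid-linked sugar and Alg5 as the enzyme that makes its glucose donor. Neither varied on any of their 4 probe sets, so the lipid-linked step is not described by these members.

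Where a gene had several varying probe sets they mostly pointed the same way. Of 13 members with at least 2 varying probe sets, 11 had all of them lower in 6C+4CP, and in 2, Sec63 and Ganab, 1 probe set was higher by at most 0.01. Counted by probe set, 47 of 51 varying ones were lower (52.1% of all varying probe sets were), and 21 were lower without overlap, against 9.11% of all. Probe sets of a gene measure the same transcripts and are not independent. Some of those of Rpn1, Calr, Srp14, Stt3a, Ssr3, Dad1 and Ganab are of a class (_x_at) that can also match other transcripts. The brightest probe sets of Rpn1, Srp14 and Stt3a are among them.

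**Figure D3:**
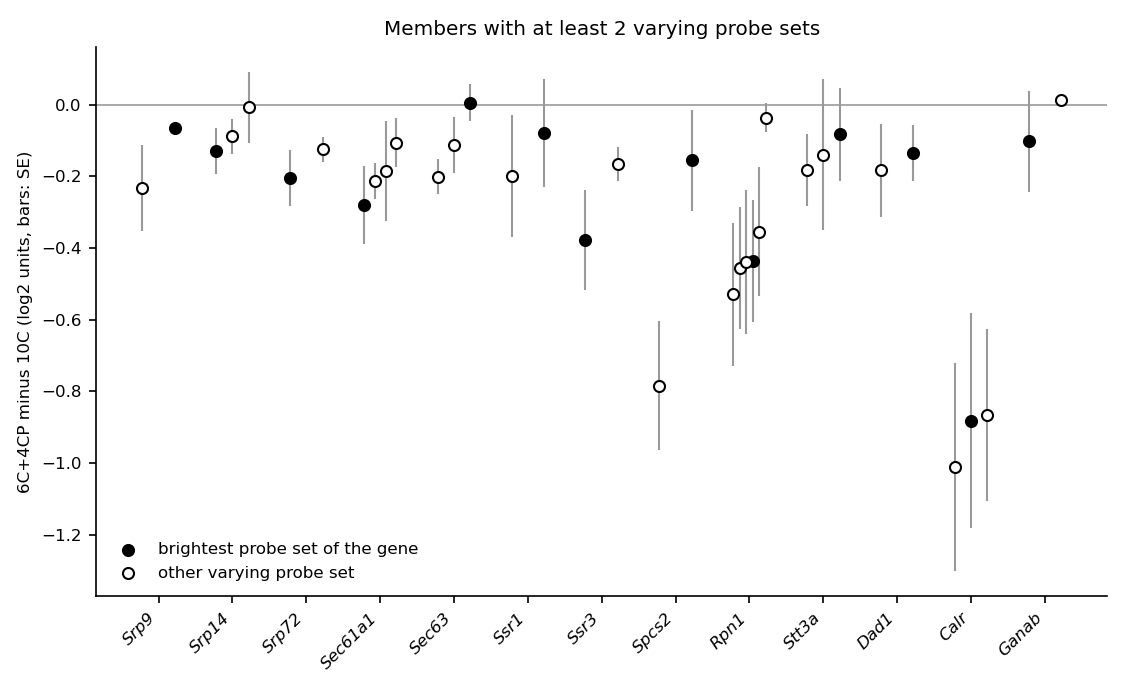
Difference between the diets, 6C+4CP minus 10C (log2 units), for each varying probe set of the 13 members that have at least 2. Filled points are the brightest probe set of a gene, open points the others, and bars the SE of the limma fit. All 3 points of Calr lie between -1.01 and -0.86, while Spcs2 and Rpn1 each hold probe sets that differ in size.

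Promoters are shown for the lectin chaperones, which hold a known control element, and for members with wide differences that do not. Genes of endoplasmic reticulum folding are switched on by Atf6 and Xbp1 through the endoplasmic reticulum stress element, which reads CCAAT, any 9 bases, then CCACG. It was searched on both strands in RefSeq windows of GRCm38.p6, 250 bases before to 50 after each annotated start, which were at hand for 28 of the 35 members. Spcs3, Sec61a1, Srp19, Srp68, Ssr2, Sec11c and Alg2 had no window and were not searched. Each window is given 5′ to 3′ on the strand of its gene, with the element in capitals.
Calr (chr8:84846882-84847181, minus strand): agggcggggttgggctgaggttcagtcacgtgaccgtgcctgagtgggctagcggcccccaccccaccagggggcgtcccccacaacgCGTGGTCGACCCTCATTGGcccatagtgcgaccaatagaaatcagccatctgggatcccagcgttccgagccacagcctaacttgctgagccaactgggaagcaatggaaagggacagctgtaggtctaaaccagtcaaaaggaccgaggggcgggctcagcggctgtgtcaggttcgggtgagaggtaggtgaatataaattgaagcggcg
Canx (chr11:50325624-50325923, minus strand): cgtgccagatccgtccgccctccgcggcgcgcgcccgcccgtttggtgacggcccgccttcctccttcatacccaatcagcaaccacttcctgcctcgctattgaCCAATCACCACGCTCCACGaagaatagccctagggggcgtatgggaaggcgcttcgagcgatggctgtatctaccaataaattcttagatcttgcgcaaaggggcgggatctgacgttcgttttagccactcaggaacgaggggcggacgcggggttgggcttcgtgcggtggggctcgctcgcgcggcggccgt
Mogs (chr6:83115256-83115555, plus strand): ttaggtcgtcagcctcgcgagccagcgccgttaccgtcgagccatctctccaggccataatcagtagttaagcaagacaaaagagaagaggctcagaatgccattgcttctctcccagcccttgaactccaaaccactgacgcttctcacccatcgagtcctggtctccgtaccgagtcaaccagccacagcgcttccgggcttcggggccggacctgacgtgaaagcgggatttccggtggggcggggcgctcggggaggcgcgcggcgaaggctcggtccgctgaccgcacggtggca
Rpn1 (chr6:88084223-88084522, plus strand): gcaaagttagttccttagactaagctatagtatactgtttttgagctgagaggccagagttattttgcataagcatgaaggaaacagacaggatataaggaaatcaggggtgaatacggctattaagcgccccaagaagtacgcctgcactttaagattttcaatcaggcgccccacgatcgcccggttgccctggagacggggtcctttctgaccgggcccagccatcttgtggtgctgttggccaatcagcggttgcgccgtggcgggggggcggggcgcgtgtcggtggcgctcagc
Hspa5, the chaperone BiP, for comparison (chr2:34771840-34772139, plus strand): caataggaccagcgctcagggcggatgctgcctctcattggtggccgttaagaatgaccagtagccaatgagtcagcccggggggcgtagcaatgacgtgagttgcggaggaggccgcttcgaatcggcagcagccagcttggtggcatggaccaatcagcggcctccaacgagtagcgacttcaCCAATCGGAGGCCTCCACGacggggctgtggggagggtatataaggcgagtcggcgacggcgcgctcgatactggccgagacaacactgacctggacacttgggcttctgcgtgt

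Among the 28 members the element was found in 2, Calr and Canx, against 0.137% of all 27025 genes with a window (37 genes). It lies at bases 89 to 107 of the Calr window, on the opposite strand, and at bases 106 to 124 of the Canx window. Of these genes Calr had the widest difference of all members, and the 1 varying probe set of Canx differed by -0.13. Mogs (-0.64) and Rpn1 (-0.43) had differences without an element in the window. Spcs2, also without one, differed by -0.16 with overlap on its brightest probe set and by -0.78 on its dimmer one. The related motifs ATTGG, any base, CCACG (ERSE-II) and TGACGTGG (the core of the Xbp1 site), neither of which contains the first, were in 0 of the 28, against 0.0444% and 0.714% of all genes. Missing letters in these windows say nothing of the factors, and the reference strain is not the strain of these mice.

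Other genes of the route, from 4 lists of 75 genes, were more mixed. Of 71 measured 31 varied, 23 lower and 8 higher in 6C+4CP, with a median difference of -0.08 and with 11 lower and 1 higher without overlap (9.52% and 11.8% of all varying genes). By limma over all probe sets 1 of them, Edem1, fell in 6C+4CP. Edem1, which takes glycoproteins that fail to fold toward degradation, read 8.87, 8.80 and 8.79 in 6C+4CP, against 9.40, 9.37 and 9.31 in 10C, a difference of -0.54 (SE 0.036, adjusted p = 0.0391, or 0.0694 among varying probe sets alone). The call was lost on leaving out any mouse except 6C+4CP replicate 1, with adjusted p between 0.0452 and 0.128 over these 6 fits.

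Among further oligosaccharyltransferase genes 5 varied, 4 lower and 1 higher. Ostc, a subunit of the Stt3a form of the enzyme, read 9.08, 8.59 and 8.86 in 6C+4CP, against 9.58, 9.87 and 9.15 in 10C (difference -0.69, SE 0.25). Krtcap2, of the same form, read 9.00, 8.98 and 8.95 in 6C+4CP, against 9.22, 9.33 and 9.15 in 10C (-0.26, SE 0.052). Magt1, an oxidoreductase subunit of the Stt3b form, read 9.89, 10.04 and 9.80 in 6C+4CP, against 10.14, 10.49 and 10.40 in 10C (-0.44, SE 0.12). Each of these 3 genes separated the diets, while Tusc3, the alternative to Magt1, overlapped with a difference of 0.23. Limma called none of the 3 (adjusted p = 0.704 for Ostc, 0.506 for Krtcap2 and 0.624 for Magt1).

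In the list of further lectin and trimming genes 4 of 9 varied, and all 4 were lower in 6C+4CP without overlap. Besides Edem1 these were the cargo lectins Lman2 (-0.32) and Lman1 (-0.21) and the partner of Lman1, Mcfd2 (-0.25), none of which limma called (adjusted p = 0.704 each). In the list of lipid-linked sugar and sugar donor genes 11 of 30 measured varied, 9 lower and 2 higher. Gmppb, which makes the mannose donor, differed by -0.90 (SE 0.44), or by -0.49 without 10C replicate 2, and Alg3, a mannosyltransferase, by -0.22 (SE 0.074), both without overlap. Dhdds, of the same list, differed by -0.46 (SE 0.29) without overlap, with 8.06 in 10C replicate 2 against 7.28 and 7.13 in the other 10C mice. Nus1, which acts in making the lipid carrier, differed by -0.31 with overlap. The list of further entry genes went both ways, 6 lower and 5 higher of 11 varying. In it Serp1, a small protein at the channel, differed by -0.28 with overlap, Emc1, of the membrane protein insertase, by -0.21 without overlap, and Tram2, a translocon-associated protein, by 0.31 as the 1 higher gene without overlap, or by 0.18 without 6C+4CP replicate 2.

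Set beside neighbouring lists, members had a median difference of -0.16, vesicle transport genes -0.16 (14 varying), disulfide isomerases and oxidases -0.31 (10 varying), and BiP with its partners -1.12 (10 varying). Of the members 22 of 25 were lower, 9 without overlap, against 52.0% and 9.52% of all varying genes. In the BiP list 9 of 10 were lower, 8 without overlap, and of the disulfide isomerases and oxidases 10 of 10, 5 without overlap. Of the vesicle transport genes 11 of 14 were lower, with 4 lower and 2 higher without overlap. Limma over all probe sets called 1 of them, Sec23a, higher in 6C+4CP (difference 0.53, SE 0.025, adjusted p = 0.0104). Over all probe sets 0.242% were called. The fit to varying probe sets alone called 0 of these genes. The chaperone Hspa5 read 11.83, 11.84 and 11.77 in 6C+4CP, against 12.77, 13.25 and 12.87 in 10C. These lists share the 6 mice, and the difference between lists was not tested.

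**Figure D4:**
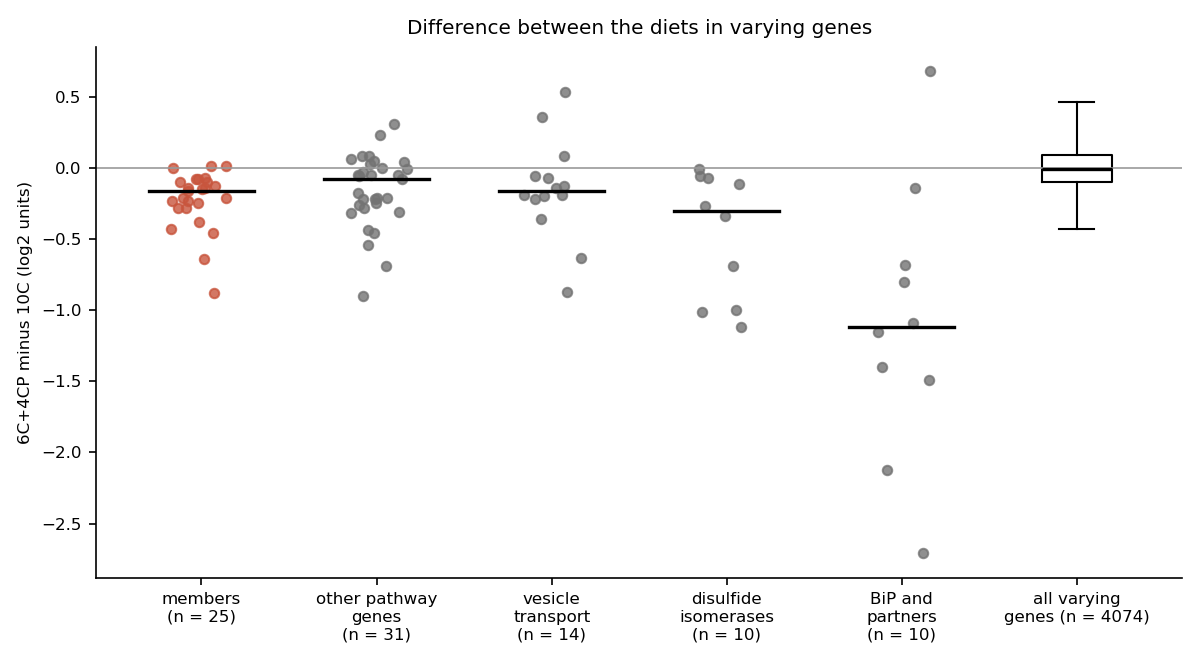
Difference between the diets, 6C+4CP minus 10C (log2 units), of each varying gene of the members (red) and of neighbouring lists (grey), with black lines at the medians. The box gives the median and quartiles of all 4074 varying genes, with whiskers at their 5th and 95th percentiles. Members centre on -0.16 and BiP with its partners on -1.12.

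Markers of other cells were read beside these values. Plasma cells are rich in endoplasmic reticulum, and of 9 B cell and plasma cell markers measured 3 varied, all 3 lower in 6C+4CP. Ighm was lower without overlap (8.32, 8.40 and 8.26 in 6C+4CP, against 8.66, 9.08 and 9.22 in 10C). Sdc1 (-0.18) and Derl3 (-0.68) overlapped between the diets. Cd79a, Cd79b, Ms4a1, Jchain, Mzb1 and Pou2af1 did not vary and lay between 5.62 and 6.69, near the array medians. The summed level of the list, in which Sdc1 was the brightest marker (9.66 to 10.34), was taken on the unlogged scale. It ran from 1688 to 2035 in 6C+4CP and from 1852 to 2550 in 10C. This sum follows few of the markers and is not a measure of how many B cells or plasma cells there were. Which cells of the liver gave the Sdc1 and Derl3 values was not tested. The part of these markers in the members' differences was not tested.

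Of 8 Kupffer cell and macrophage markers 5 varied, 4 lower and 1 higher, all with overlap, and their sum ran from 1758 to 2579 in 6C+4CP and from 1991 to 2954 in 10C. Of 7 hepatocyte markers 5 varied, 2 lower and 3 higher, and 4 of the 5 did not overlap, Cps1 (-0.27) and Apoa1 (-0.11) being lower and Hnf4a (0.40) and Ttr (0.03) higher in 6C+4CP, with limma calling none. Their part in the members' differences was not tested. The hepatocyte list had sums of 74172 to 76321 in 6C+4CP and 75774 to 76815 in 10C. Sinusoidal endothelium had 1 varying marker of 6 (sum 2408 to 2445 in 6C+4CP, 2296 to 2465 in 10C), stellate cells 2 of 6 (3966 to 4048 in 6C+4CP, 3875 to 4211 in 10C), and pancreatic acinar cells 1 of 6 (962 to 1244 in 6C+4CP, 1067 to 1320 in 10C). Of the 4 cholangiocyte markers none varied.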

How the data were processed

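RNA from 1 piece of liver per mouse was hybridised to 1 Affymetrix array each, after biotin labelling of 100 ng per the labels' protocols. The deposited table holds the authors' processed values, read here as log2 and used as deposited. The submitters' processing notes name R 2.7.2. How background was corrected, how probes were combined and which log base was taken is not stated in those sources. The design text counts 3 diet groups, and the third was not analysed here. Signal over background is not given, so precision rests on 3 mice per diet, which the labels make separate animals.

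Of 45101 probe sets 64 Affymetrix controls were left out. Of the rest 34945 have 1 gene symbol in GEO's platform annotation, 932 several and 9160 none, and 7 older symbols of the gene lists were matched through RefSeq synonyms. Samples were grouped by title. The test was limma's (version 3.58.1, R 4.3.3), with lmFit and eBayes and no covariates (all 6 arrays, Benjamini-Hochberg adjustment over all 45037 probe sets, tested on simulated data). Differences are 6C+4CP minus 10C, and the SE is that of the limma fit. Because values that do not vary give this fit a prior variance near 0 (3.27e-20), the same test on varying probe sets alone stands beside it. Varying was defined on the deposited values in every alternative.

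The members, lists and tests were chosen with earlier results of these data known. Members given in every mouse are those with the smallest p of each complex, up to 2, and the paralogues Stt3a and Stt3b, Sec11a and Sec11c, Calr and Canx. Of other pathway lists up to 3 genes with the smallest p are named. Mogs, Ganab, Srp19, Cps1, Apoa1, Hnf4a, Ttr, Rpn2, Dad1, Lman1, Tusc3, Dhdds, Sec23a, Saa1 and Ighm, and the probe sets that are not the brightest, were added after their values were seen. The alternatives were a replicate block, leaving out each mouse, quantile normalization, median centring, wider varying thresholds, brighter probe sets, an intensity trend, an adjusted p under 0.1 and the mean over all probe sets of a gene. Promoter windows are RefSeq's, and positions come from them alone, since the files name no genome build.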

Additional observations from a re-analysis of the deposited data

How the results depend on the processing

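The count of all probe sets called by limma, 109, was unstable: it was 3 with the replicate block, 1 after quantile normalization, 0 after median centring, 0 among probe sets ranging over more than 0.01 and 1 over more than 0.1, 0 among brighter probe sets, 0 with an intensity trend and robust estimation, 0 with the replicate block on varying probe sets (added after seeing the data), and 285 to 398 without 1 mouse. Those last calls, like the 109, fell mostly on probe sets that do not vary. Member probe sets called were 0 in every one of these settings and at an adjusted p under 0.1, except without 6C+4CP replicate 3, where it was 1, a probe set of Alg5 that does not vary (range over the leave-one-out settings 0 to 1). Genes lower in 6C+4CP numbered 20 to 25 of 25 without 1 mouse, and their median difference ran from -0.21 to -0.11. Genes lower without overlap numbered 9 to 15 without 1 mouse, the 15 without 10C replicate 3. Leaving out a mouse can only keep or raise this count, and the share among all varying genes was not computed there. After quantile normalization the count was 8. On leaving out 6C+4CP replicate 2 or 10C replicate 2, 1 gene was higher without overlap. With the mean of all probe sets of a gene, 26 of 28 were lower, with a median of -0.14 and 13 without overlap. Without 1 mouse directions turned for Srprb (-0.04 to 0.08), Stt3a (-0.18 to 0.02), Ssr1 (-0.20 to 0.04) and Sec63 (-0.03 to 0.05), and for Ssr4 the difference, at most 0.03, was just below 0 without 6C+4CP replicate 3. Deviations of equally numbered mice from their diet means correlated at 0.4775, -0.0893 and 0.08465 over varying probe sets. Those of unequally numbered mice correlated at -0.5725 to 0.4006. Deviations within a diet sum to 0, so these values are bound to each other and cannot tell whether equal numbers mean pairing. The replicate block changed no member's call. Hspa5 passed without 10C replicate 2 (difference -1.01, adjusted p = 0.0151), and Edem1 did not pass with the replicate block (0.0836), after quantile normalization (0.264) or median centring (0.275). The cause of these changes was not tested. At this number of arrays a difference below the spread of 3 mice could not be shown, and some well above it also went uncalled. With all 6 mice Hspa5 differed by -1.15, with an SD of 0.035 in 6C+4CP and 0.25 in 10C (limma adjusted p = 0.272).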
